A study of Mus musculus with 12 samples.

Results

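The 9 genes described here encode the proteins that build and deliver the lipids of the epidermal water barrier: Elovl4, Cyp4f39, Cers3, Pnpla1, Ugcg, Abca12, Alox12b, Aloxe3 and Smpd1. They were taken by gene symbol, as a fixed set of pathway members, from the 25210 genes of the deposited count table. The rule uses no measured value, but the set was chosen when earlier results of these data were known. All 9 passed the filter on low counts. Of these proteins 8 are enzymes, and Abca12 is a lipid transporter. The cells were mammary organoids of virgin female FVB/N mice, 8 to 11 weeks old, embedded in growth factor-reduced Matrigel with minimal medium. They received vehicle (dimethyl sulfoxide, DMSO) or CHIR99021 at 1, 1.5 or 3 µM for 7 days. CHIR99021 inhibits the kinase GSK3, which otherwise marks β-catenin for degradation, and so raises WNT/CTNNB1 signalling. Cultures 1, 2 and 3 came from 3 animals, and each was split over the 4 treatments, so that every group has 3 libraries and the series 12. The sample titles add "med" to culture 1, "min" to culture 2 and "max" to culture 3 without saying what these words stand for, and whatever they mark cannot be told apart from the culture. The labels name no transgene, and CHIR99021 is the only agent they give for the treated groups beyond the vehicle. Each library is bulk RNA from all cells of a culture, in which more cells of a type and more RNA per cell cannot be told apart.

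In the outer epidermis, keratinocytes lengthen fatty acids to ultra-long chains, hydroxylate them at the end of the chain, join them to a sphingoid base and add linoleic acid, which yields acylceramides. A glucose is attached, the glucosylceramide is loaded into lamellar bodies and secreted, and lipoxygenases oxidise the linoleate so that the lipid can be bound to proteins of the cornified envelope. Loss of several of these genes causes ichthyosis, a scaling skin disease in which water is lost through the skin, and the normal mammary epithelium is not known for making this barrier.

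Of the 9 genes, 7 rose with CHIR99021, Ugcg did not pass the test at any dose, and Smpd1 fell. At 3 µM the called increases ran from 18.8-fold for Aloxe3 to 141.3-fold for Pnpla1, and Alox12b went from 0 counts in all 3 DMSO libraries to 47.8 to 56.5 counts per M library counts (CPM; M, mega). At 3 µM 7 genes were higher and 1 was lower, where 29.9% of all 15316 genes tested were higher and 27.7% lower. At 1.5 µM the counts were again 7 higher and 1 lower, beside 15.4% and 11.8% of all genes, and without culture 2 in any group 3 were higher and 0 lower, in a fit that called 457 of all genes where the fit with all cultures called 4177. At 1 µM 1 gene was higher (Abca12) and 0 were lower, beside 0.189% and 0.0522%. With the culture as a block in the model, 5 genes were higher and 1 lower at 1 µM, beside 2.55% and 3.06% of all genes. Counted by non-overlap instead, at 3 µM 7 genes had all 3 libraries above all DMSO libraries and 1 had all below, beside 30.9% and 29.9% of all genes. At 1.5 µM these counts were again 7 and 1 (24.9% and 20.7% of all genes), and at 1 µM they were 6 and 1 (11.2% and 8.27%). The median log2 fold change of the 9 genes against DMSO was 1.39, 3.84 and 5.10 at 1, 1.5 and 3 µM, with Alox12b entered at its lower bound, and that of all genes tested was −0.00, −0.00 and −0.03. All p-values are from edgeR's quasi-likelihood test, two-sided, adjusted by Benjamini-Hochberg over all genes tested, with 0.05 as the threshold. Values for single libraries are CPM, given for cultures 1, 2 and 3 in that order, and fold changes are log2 ± SE.

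Library totals ran from 10.1 to 24.5 M counts, and no pair of replicate libraries agreed within sampling noise. The sum of 10 squamous suprabasal markers (Krt1, Krt10, Ivl, Lor, Flg, Sbsn, Dsg1a, Dsc1, Tgm3 and Krtdap) was 66.1 to 81.4 CPM in DMSO, 128 to 588 at 1 µM, 1230 to 4387 at 1.5 µM and 2095 to 18707 at 3 µM. The labelled tissue was checked with 8 basal and myoepithelial and 9 luminal markers, and all of them had counts in every library. The basal and myoepithelial sum was 2103 to 3336 CPM in DMSO and 14459 to 31317 CPM at 3 µM, and its members split: Krt5, Krt14 and Trp63 were called higher at 3 µM and the contractile or hormone-response genes Acta2, Myh11, Cnn1, Oxtr and Mylk lower (edgeR, adjusted). The luminal sum was 2825 to 4797 CPM in DMSO and 1861 to 1923 at 3 µM. Of its members 6 were called lower at 3 µM, Areg was called higher (mean 1.79 CPM in DMSO and 41.1 at 3 µM), and Elf5 and Kit were not called (edgeR, adjusted). Adipocyte markers summed to 3445 to 9204 CPM in DMSO and to 36.2 to 237.9 at 3 µM, with 5 of 6 detected in every library. Of 7 sebaceous markers, Mc5r, Awat1 and Fa2h averaged 0.156, 0.0487 and 0.401 CPM in DMSO and were at 0 in all 3 libraries at 3 µM. Awat2 (0.810 in DMSO and 0.941 CPM at 3 µM, edgeR adjusted p = 0.576) and Scd3 (5.70 and 4.78 CPM, adjusted p = 0.493) did not pass the test. Their sum, 81.0 to 168 CPM in DMSO and 5.31 to 10.7 at 3 µM, is mostly Pparg in DMSO (99.3 ± 44.9 CPM), which fat cells express too. The part of these shifts in the results on the 9 genes was not tested.

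The region before the start of each gene is shown for 5 of the 9 genes because these stand for the extremes of the response: Alox12b, Elovl4, Cers3 and Pnpla1 for the steep rises and Smpd1 for the fall. RefSeq promoter entries (GRCm38.p6) matched 8 of the 9 genes, all but Aloxe3. Each sequence is the 250 bases before the RefSeq start, written 5′ to 3′ on the gene's own strand. The RefSeq start equals that of the count table for Abca12, Cers3, Pnpla1 and Smpd1. It lies 28 bp upstream of it for Elovl4 and 15739 bp upstream for Cyp4f39, and 83 bp downstream for Alox12b and 293 bp downstream for Ugcg. The Alox12b window thus reaches into the gene as the count table places it, and the Ugcg window lies wholly inside it. Capitals mark the only match to a searched motif.
Alox12b (chr11:69156822-69157071, plus strand): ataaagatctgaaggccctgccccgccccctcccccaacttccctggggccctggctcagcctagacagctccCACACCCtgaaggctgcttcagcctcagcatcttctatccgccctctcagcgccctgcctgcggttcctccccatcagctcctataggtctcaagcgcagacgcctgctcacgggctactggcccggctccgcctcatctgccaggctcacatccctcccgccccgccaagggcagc
Elovl4 (chr9:83806306-83806555, minus strand): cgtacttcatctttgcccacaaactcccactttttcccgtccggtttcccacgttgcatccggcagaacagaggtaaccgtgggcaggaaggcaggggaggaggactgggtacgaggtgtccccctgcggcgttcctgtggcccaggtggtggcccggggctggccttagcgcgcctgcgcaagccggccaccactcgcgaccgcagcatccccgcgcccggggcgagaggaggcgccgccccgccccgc
Cers3 (chr7:66743254-66743503, plus strand): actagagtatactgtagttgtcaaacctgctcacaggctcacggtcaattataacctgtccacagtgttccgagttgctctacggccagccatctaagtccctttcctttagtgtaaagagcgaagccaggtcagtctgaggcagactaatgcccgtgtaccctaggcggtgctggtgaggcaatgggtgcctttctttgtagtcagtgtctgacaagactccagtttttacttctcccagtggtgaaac
Pnpla1 (chr17:28858161-28858410, plus strand): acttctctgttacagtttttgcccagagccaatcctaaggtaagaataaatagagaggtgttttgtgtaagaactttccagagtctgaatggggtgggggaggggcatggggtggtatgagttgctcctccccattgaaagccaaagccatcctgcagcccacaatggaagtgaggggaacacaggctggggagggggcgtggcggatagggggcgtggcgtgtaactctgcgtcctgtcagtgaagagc
Smpd1 (chr7:105554110-105554359, plus strand): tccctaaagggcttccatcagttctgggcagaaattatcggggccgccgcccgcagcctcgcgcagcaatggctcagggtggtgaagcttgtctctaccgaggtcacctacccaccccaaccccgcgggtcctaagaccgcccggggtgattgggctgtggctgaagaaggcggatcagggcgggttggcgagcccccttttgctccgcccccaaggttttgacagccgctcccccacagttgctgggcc

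Both strands of the 8 windows were searched for a TCF/LEF core (CTTTGA, held by 14.05% of 27025 mouse promoters of the same length), a grainyhead-like site (AACCNGTT, 1.7132%), an AP-1 site (TGANTCA, 6.8677%), a KLF site (CACACCC, 6.8492%) and a TATA box (TATAAA, 12.9658%). None of these words overlaps another in a match found here. The KLF word occurred in 1 of the 8 windows, that of Alox12b, from 177 to 171 bases before the RefSeq start, which is 94 to 88 bases before the start in the count table. The other 4 words occurred in 0 of the 8. These windows are short, and a match or its absence describes the letters only. The windows differed in base composition: G and C made up 66.0% in Alox12b, 69.6% in Elovl4, 49.6% in Cers3, 54.0% in Pnpla1, 64.8% in Smpd1 and 80.4% in Ugcg, beside a median of 52.0% over all promoters.

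The 2 enzymes that make the ω-hydroxylated ultra-long fatty acid, Elovl4 and Cyp4f39, both rose. Elovl4 (ENSMUSG00000032262, chr9:83778692-83806277, minus strand, GRCm38), the elongase that extends fatty acids to ultra-long chains, stood at 2.62, 4.27 and 3.93 CPM in DMSO, 8.28, 9.99 and 9.66 CPM at 1 µM, 56.9, 68.9 and 27.2 CPM at 1.5 µM and 153.1, 148.0 and 83.2 CPM at 3 µM. Each dose group lay wholly above the one before it, and culture 3 was the lowest at 1.5 and 3 µM. Against DMSO, Elovl4 was 36.0-fold higher at 3 µM (log2 5.17 ± 0.405, edgeR adjusted p = 7.06e-06) and higher at 1.5 µM (3.84 ± 0.385, adjusted p = 0.000261). At 1 µM its log2 value was 1.39 ± 0.367 (adjusted p = 0.164, and 0.0472 with the culture block). The steps from 1 to 1.5 µM (2.45 ± 0.353, adjusted p = 0.00730) and from 1.5 to 3 µM (1.33 ± 0.335, adjusted p = 0.0154) both passed, the latter not without culture 2 at 3 µM (adjusted p = 0.0524).

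Cyp4f39 (ENSMUSG00000061126, chr17:32468462-32492479), the cytochrome P450 that hydroxylates the end of these chains, stood at 0.533, 0.508 and 0.916 CPM in DMSO, 2.08, 1.71 and 1.53 CPM at 1 µM, 5.86, 6.38 and 4.52 CPM at 1.5 µM and 18.2, 22.2 and 15.7 CPM at 3 µM. No 2 dose groups overlapped, and its cultures lay closer together than those of the other risers at 1.5 µM, with a ratio of highest to lowest of 1.41. It was 28.0-fold higher at 3 µM than in DMSO (log2 4.81 ± 0.293, edgeR adjusted p = 1.91e-06) and higher at 1.5 µM (3.07 ± 0.279, adjusted p = 0.000144). At 1 µM the value was 1.41 ± 0.277 (adjusted p = 0.0904, and 0.0325 with the block). Both steps passed, with 1.65 ± 0.253 from 1 to 1.5 µM (adjusted p = 0.00867) and 1.74 ± 0.246 from 1.5 to 3 µM (adjusted p = 0.000999); the first did not without culture 2 at 1 µM (adjusted p = 0.0529).

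At 3 µM the fitted folds of Cers3 and Pnpla1, which turn that fatty acid into acylceramide, were above those of Elovl4 and Cyp4f39. This difference between genes was not tested, and for Cers3 it did not hold in every culture. In culture 1 Cers3 was at 32.2 times its DMSO level, below Elovl4 (58.4) and Cyp4f39 (34.1). In cultures 2 and 3 it was at 113 and 124 times, above both, but these ratios rest on 7 and 12 counts in DMSO. Cers3 (ENSMUSG00000030510, chr7:66743504-66823692), the ceramide synthase for ultra-long chains, stood at 2.84, 0.711 and 0.646 CPM in DMSO, 7.67, 5.56 and 2.84 CPM at 1 µM, 28.0, 27.4 and 11.9 CPM at 1.5 µM and 91.6, 80.5 and 80.0 CPM at 3 µM. In DMSO culture 1 was the highest, and its level touched the lowest of the 1 µM group; all later groups were separate. Cers3 was 56.2-fold higher at 3 µM (log2 5.81 ± 0.631, edgeR adjusted p = 4.5e-05) and higher at 1.5 µM (3.91 ± 0.591, adjusted p = 0.00149). At 1 µM the value was 1.84 ± 0.573 (adjusted p = 0.241, and 0.0379 with the block), with 2.70, 7.81 and 4.39 times the DMSO level in cultures 1, 2 and 3. The step from 1.5 to 3 µM passed (1.90 ± 0.512, adjusted p = 0.0200), but not without culture 1 at 3 µM (0.0534), culture 2 at 3 µM (0.0509) or culture 3 at 1.5 µM (0.0571), and that from 1 to 1.5 µM passed with the block (2.06 ± 0.527, adjusted p = 0.0509 without and 0.00373 with it).

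Pnpla1 (ENSMUSG00000043286, chr17:28858411-28890308), the transacylase that adds linoleic acid to the ω-hydroxyl group, was near the limit of detection in DMSO, with 6, 3 and 1 counts (0.267, 0.305 and 0.0539 CPM). It stood at 3.10, 1.71 and 0.568 CPM at 1 µM, 14.2, 10.5 and 3.94 CPM at 1.5 µM and 33.1, 32.1 and 21.7 CPM at 3 µM. No 2 groups overlapped, and culture 3 was the lowest in all 4. Pnpla1 was 141.3-fold higher at 3 µM (log2 7.14 ± 0.811, edgeR adjusted p = 5.93e-05), a fold that rests on those few DMSO counts, and higher at 1.5 µM (5.54 ± 0.786, adjusted p = 0.00112). At 1 µM it was 3.14 ± 0.790 (adjusted p = 0.148, and 0.0142 with the block). Its steps passed with the block and not without it: 2.40 ± 0.611 from 1 to 1.5 µM (adjusted p = 0.0504, block 0.00156) and 1.60 ± 0.575 from 1.5 to 3 µM (adjusted p = 0.0600, block 0.000920). Pnpla1 overlaps the antisense gene Pnpla1os (chr17:28852055-28859508) over its first bases. It is the only one of the 9 genes with an overlapping gene, and the strand setting of the counting is not given in the sources used here.

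Ugcg (ENSMUSG00000028381, chr4:59189257-59222833), the glucosyltransferase that makes glucosylceramide in nearly all cell types, did not pass the test at any dose. It stood at 24.8, 40.3 and 78.7 CPM in DMSO, 17.8, 29.7 and 91.4 CPM at 1 µM, 25.02, 33.7 and 95.7 CPM at 1.5 µM and 34.7, 39.9 and 74.7 CPM at 3 µM. Culture 3 was the highest and culture 1 the lowest in every group, so that the 4 groups overlapped almost wholly. At 3 µM the log2 change was 0.05 ± 0.698 (95% confidence interval −1.50 to 1.61, edgeR adjusted p = 0.952), and with the culture block 0.15 (−0.305 to 0.597, adjusted p = 0.531). The upper bound of that blocked interval is below the log2 change at 3 µM of each of the 7 genes that rose. Fibroblast markers had the same order of cultures as Ugcg in every group, with sums of 1624, 7372 and 20508 CPM in DMSO and 175, 972 and 4569 CPM at 3 µM. Immune and macrophage markers had this order in every group too, with 256, 1328 and 2520 CPM in DMSO and 39.0, 110 and 116 CPM at 3 µM. The part of either list in the levels of Ugcg was not tested.

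Abca12 (ENSMUSG00000050296, chr1:71242276-71414910, minus strand), which carries glucosylceramide into lamellar bodies, was the only one of the 9 genes to pass at the lowest dose without the block. It stood at 1.69, 1.12 and 1.78 CPM in DMSO, 8.68, 7.75 and 7.04 CPM at 1 µM, 38.5, 42.8 and 18.6 CPM at 1.5 µM and 48.1, 45.4 and 67.8 CPM at 3 µM. All groups were separate, and culture 3 was the lowest at 1.5 µM and the highest at 3 µM. At 1 µM it was 4.99-fold higher than in DMSO (log2 2.32 ± 0.327, edgeR adjusted p = 0.0247), at 1.5 µM 21.2-fold (4.41 ± 0.343, adjusted p = 8.4e-05) and at 3 µM 34.3-fold (5.10 ± 0.352, adjusted p = 3.61e-06). The call at 1 µM was lost in 8 of 12 fits that each left out 1 library (adjusted p from 0.0514 without culture 1 at 3 µM to 0.118 without culture 2 in DMSO): any library of DMSO or 1 µM, or culture 1 or 2 at 3 µM. The step from 1 to 1.5 µM passed (2.09 ± 0.300, adjusted p = 0.00714), and that from 1.5 to 3 µM was 0.69 ± 0.286 (adjusted p = 0.0931, and 0.0718 with the block).

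Alox12b and Aloxe3 encode the 2 lipoxygenases that act in sequence on the linoleate of acylceramides, and they lie side by side on chromosome 11 (Aloxe3, ENSMUSG00000020892, chr11:69125896-69149115; Alox12b, ENSMUSG00000032807, chr11:69156989-69169792) with 7873 bp and 0 annotated genes between them. Alox12b had 0 counts in all 3 DMSO libraries, 17, 8 and 1 counts at 1 µM (0.863, 0.390 and 0.0568 CPM), then 10.7, 10.9 and 1.68 CPM at 1.5 µM and 50.5, 56.5 and 47.8 CPM at 3 µM. All groups were separate, and culture 3 lay far below the others at 1 and 1.5 µM and near them at 3 µM. Because DMSO was at 0, its folds are lower bounds, taken against 3 counts in the smallest DMSO library: at least 25.4-fold higher at 1.5 µM (edgeR adjusted p = 0.00279) and at least 169-fold higher at 3 µM (adjusted p = 0.000166). At 1 µM the bound was at least 1.43-fold (adjusted p = 0.324, and 0.197 with the block). Both steps passed, with 4.11 ± 0.846 from 1 to 1.5 µM (adjusted p = 0.0323) and 2.73 ± 0.717 from 1.5 to 3 µM (adjusted p = 0.0238). The first was lost in 7 of 12 fits without 1 library: any of 1 µM, and culture 1 or 2 at 1.5 or 3 µM (adjusted p from 0.0570 to 0.138). The second was lost in 3, without culture 1 (0.0536) or 2 (0.0670) at 3 µM or culture 2 at 1.5 µM (0.0528).

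Aloxe3, its neighbour, had 19, 2 and 14 counts in the DMSO libraries (0.844, 0.203 and 0.754 CPM). It stood at 2.03, 1.22 and 0.909 CPM at 1 µM, 6.11, 8.99 and 2.49 CPM at 1.5 µM and 14.8, 12.3 and 9.32 CPM at 3 µM. The groups did not overlap, although the lowest 1 µM library was close to the highest of DMSO. Aloxe3 was 18.8-fold higher at 3 µM (log2 4.24 ± 0.584, edgeR adjusted p = 0.000189) and 9.15-fold at 1.5 µM (3.19 ± 0.566, adjusted p = 0.00308). At 1 µM it was 1.12 ± 0.561 (adjusted p = 0.483, and 0.270 with the block). The step from 1 to 1.5 µM was 2.08 ± 0.526 (adjusted p = 0.0493), a call lost in 9 of 12 fits without 1 library (adjusted p from 0.0579 without culture 1 in DMSO to 0.183 without culture 2 at 1 µM; it held without culture 2 in DMSO or culture 3 at 1.5 or 3 µM), and the step to 3 µM was 1.04 ± 0.497 (adjusted p = 0.138, and 0.0360 with the block).

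Smpd1 (ENSMUSG00000037049, chr7:105554360-105558388), the acid sphingomyelinase that makes ceramide from sphingomyelin in lysosomes and in the outer epidermis, fell. It stood at 46.9, 65.3 and 49.2 CPM in DMSO, 34.7, 44.7 and 37.7 CPM at 1 µM, 31.1, 36.3 and 28.7 CPM at 1.5 µM and 31.8, 35.2 and 23.6 CPM at 3 µM. All libraries with CHIR99021 were below all DMSO libraries, culture 2 was the highest in each group, and the 3 dosed groups overlapped one another. Its log2 change was −0.83 ± 0.181 at 3 µM (edgeR adjusted p = 0.00297), −0.74 ± 0.181 at 1.5 µM (adjusted p = 0.0133, and 0.0509 without culture 1 at that dose) and −0.46 ± 0.180 at 1 µM (adjusted p = 0.352, and 0.0396 with the block). Between 1 and 1.5 µM the step was −0.28 ± 0.180 (adjusted p = 0.401) and between 1.5 and 3 µM −0.09 ± 0.181 (adjusted p = 0.742). Sums of adipocyte, immune and luminal markers were also lower at 3 µM than in DMSO, with immune markers at 256 to 2520 CPM in DMSO and 39.0 to 116 CPM at 3 µM, and their part in the fall of Smpd1 was not tested.

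Between neighbouring doses, 5 of the 9 genes were higher at 1.5 than at 1 µM and 0 were lower, beside 4.43% and 0.992% of all genes tested (7 and 0 with the block, beside 11.3% and 10.5%). From 1.5 to 3 µM 4 were higher and 0 lower, beside 17% and 12.7% (6 and 0 with the block, beside 24.7% and 22%). At both steps 7 genes were higher without overlap and 0 lower, beside 19.3% and 11.9% of all genes from 1 to 1.5 µM and 23.1% and 19.7% from 1.5 to 3 µM. When culture 1 or culture 2 was left out of every group, 0 of the 9 and 0 of all genes were called from 1 to 1.5 µM, where the fit with all cultures called 831. From 1.5 to 3 µM 0 of the 9 and 345 of all genes were called without culture 2, against 4544 with it. The shape of the rise differed among the genes in the mean share of the own 3 µM level that was reached at 1.5 µM. It was 15.01% for Alox12b, 26.7% for Cers3, 29.9% for Cyp4f39, 32.9% for Pnpla1, 39.8% for Elovl4, 48.3% for Aloxe3 and 61.9% for Abca12. These differences between genes were not tested. The order depended on the culture: Abca12 had reached 80.0% and 94.1% of its 3 µM level in cultures 1 and 2 but 27.4% in culture 3, and Alox12b 21.2%, 19.2% and 3.51%. The share of Cyp4f39 was nearly the same in the 3 cultures, at 32.2%, 28.7% and 28.9%.

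Levels of different genes were compared as CPM per kilobase of exon (mean ± SD, n = 3). In DMSO the order was led by Smpd1 (16.1 ± 3.01) and Ugcg (9.20 ± 5.33), which did not differ beyond their spread, followed by Elovl4 (1.19 ± 0.287). The other 6 were below 0.5, with Cers3 at 0.430 ± 0.384 and Cyp4f39 at 0.228 ± 0.0800, then Abca12 (0.103 ± 0.0242), Aloxe3 (0.0939 ± 0.0543), Pnpla1 (0.0431 ± 0.0279) and Alox12b at 0. The interval of mean ± SD of Cers3 overlapped those of Cyp4f39, Abca12, Aloxe3 and Pnpla1. That of Aloxe3 overlapped those of Abca12 and Pnpla1. At 1 µM the first 6 places by mean were unchanged, with Elovl4 at 3.08 ± 0.300 CPM per kilobase. There the interval of Ugcg (8.88 ± 7.58) overlapped those of Smpd1 and Elovl4. Cyp4f39 (0.621 ± 0.0981) and Abca12 (0.528 ± 0.0555) were within each other's spread. At 1.5 µM Elovl4 led with 16.9 ± 7.10, followed by Ugcg (9.88 ± 7.39) and Smpd1 (9.61 ± 1.17), and the intervals of mean ± SD of all 3 overlapped. At 3 µM the order was Elovl4 (42.3 ± 12.9), Cers3 (25.8 ± 2.01), Alox12b (21.2 ± 1.84), Ugcg (9.55 ± 4.18), Smpd1 (9.05 ± 1.78), Cyp4f39 (6.54 ± 1.15), Pnpla1 (5.99 ± 1.30), Abca12 (3.63 ± 0.826) and Aloxe3 (1.90 ± 0.431). Ugcg, Smpd1, Cyp4f39 and Pnpla1 are not ordered there beyond their spread, since the interval of mean ± SD of each overlaps that of its neighbour and that of Ugcg overlaps all 3 others. Alox12b thus moved from the last place in DMSO to the third. Its mean per-length level was above that of its partner Aloxe3 at 3 µM. At 1.5 µM it was above too (3.19 ± 2.16 and 0.917 ± 0.509), but there the intervals of mean ± SD overlapped. In CPM not divided by length, Alox12b was above Aloxe3 in cultures 1 and 2 at 1.5 µM and below it in culture 3 (1.68 and 2.49).

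Culture 3 had the lowest levels at 1.5 µM. It was the lowest of the 3 cultures for 8 of the 9 genes (all but Ugcg), where it was the lowest for 43.7% of all genes that average at least 50 counts. The ratio of culture 3 to the mean of cultures 1 and 2 was 0.156 for Alox12b, 0.319 for Pnpla1, 0.330 for Aloxe3, 0.429 for Cers3, 0.432 for Elovl4, 0.458 for Abca12 and 0.739 for Cyp4f39. For the 10 squamous markers culture 3 was the lowest in 10 of 10, with a median ratio of 0.278. At 3 µM culture 3 was the lowest in 7 of 9 barrier genes (46.4% of all genes), with a median ratio of 0.776, and the ratio was closer to 1 than at 1.5 µM in 8 of 9, all but Smpd1. The ratios of the risers at 3 µM were 0.552 for Elovl4, 0.666 for Pnpla1, 0.688 for Aloxe3, 0.776 for Cyp4f39, 0.894 for Alox12b, 0.929 for Cers3 and 1.45 for Abca12. Of the squamous markers, 6 of 10 came closer to 1 as well, with a median ratio of 0.354 at 3 µM, and the ranges of the lists overlapped: Sbsn was at 1.12, Krtdap at 0.573 and Dsc1 at 0.570. The lowest were Krt10 (8798, 6588 and 153.9 CPM, a ratio of 0.0200), Tgm3 (0.0364) and Krt1 (6743, 5016 and 269.8 CPM, 0.0459). No test of the difference between cultures was made.

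Close relatives of the 9 genes were set beside them to show whether the rise was shared by their families. Of the 37 listed relatives 29 passed the filter and were tested. At 3 µM 6 were higher (20.7%), 14 lower (48.3%) and 9 not called, with a median log2 change of −0.31. Of all genes tested 29.9% were higher and 27.7% lower at that dose. The lipoxygenases were the family with most increases, with 4 of 5 relatives higher and 1 lower. Alox8, which starts 14139 bp after the end of Alox12b on chromosome 11, stood at 1.22 ± 0.696 CPM in DMSO, then at 0.581 ± 0.182 (1 µM), 0.401 ± 0.0749 (1.5 µM) and 29.8 ± 23.5 CPM (3 µM; SD, n = 3). It rose at 3 µM (log2 4.59, edgeR adjusted p = 0.000873) and was at −1.59 at 1.5 µM (adjusted p = 0.188), the dose at which Alox12b and Aloxe3 were called higher. Alox12, the platelet-type lipoxygenase, went from 0.874 ± 0.637 to 17.1 ± 5.94 CPM at 3 µM (4.22, adjusted p = 0.000128).

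In the other families relatives that rose were few. Of the ceramide synthases other than Cers3, 0 of 5 were higher and 4 lower; of the ABCA transporters 0 of 5 were higher and 2 lower; of the CYP4F enzymes 0 of 3 were higher and 3 lower; of the patatin-like phospholipases 0 of 2 were higher and 2 lower. Of the elongases 1 of 5 was higher (Elovl7) and 2 lower, and of the sphingomyelinases 1 of 3 was higher. The higher sphingomyelinase was Smpd3, the neutral enzyme of the plasma membrane, which went from 0.361 ± 0.0497 CPM in DMSO to 10.5 ± 5.0 CPM at 3 µM (log2 4.81, edgeR adjusted p = 0.000753) while Smpd1 fell. The largest decreases were those of Pnpla2, the main triglyceride lipase of fat cells, from 570 ± 252 to 49.5 ± 9.97 CPM (−3.53, adjusted p = 0.000143), Pnpla3 (−3.13, adjusted p = 0.00183) and the cholesterol exporter Abca1 (−2.80, adjusted p = 8.16e-05). Adipocyte markers were lower in the same libraries, as given above, and their part in these decreases was not tested. Elovl7 is named although it falls outside the rule for naming genes, after its value was seen.

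Of 18 genes of other steps of ceramide synthesis 17 were tested, and at 3 µM 4 were higher (23.5%), 3 lower (17.6%) and 10 not called, with a median log2 change of 0.08. These shares are near the 29.9% and 27.7% of all genes. Degs2, the desaturase that also makes the phytosphingosine base found in skin, rose from 1.87 ± 0.290 to 14.8 ± 4.37 CPM (2.98, edgeR adjusted p = 1.6e-05). Sptlc1, a subunit of the enzyme that starts sphingolipid synthesis, rose by 0.71 (adjusted p = 0.000809) and Slc27a4, a fatty acid transporter and acyl-CoA synthetase, by 0.53 (adjusted p = 0.00316). Acsl1, an acyl-CoA synthetase abundant in fat (−3.61, adjusted p = 0.000538), B4galt6, which makes lactosylceramide (−2.55, adjusted p = 0.00192), and Sgms2, which turns ceramide into sphingomyelin (−0.57, adjusted p = 0.0359), fell.

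Genes listed for lamellar bodies and extracellular lipid processing mostly rose, a list that is not limited to steps after Abca12. Of 20 listed genes 19 were in the table and tested. At 3 µM 13 were higher (68.4%), 2 lower (10.5%) and 4 not called, with a median log2 change of 2.55. Of all genes tested 29.9% were higher and 27.7% lower at that dose. At 1.5 µM 11 were higher and 2 lower, beside 15.4% and 11.8% of all genes. At 1 µM 2 were higher and 0 lower, beside 0.189% and 0.0522%. With the block 6 were higher and 0 lower at 1 µM, beside 2.55% and 3.06%. The largest rises were those of Pla2g2f, a secreted phospholipase of the suprabasal epidermis, from 0.0592 ± 0.103 CPM in DMSO to 72.6 ± 43.7 CPM at 3 µM (edgeR adjusted p = 3.98e-05), Sdr9c7, the dehydrogenase that acts on the acylceramide after the 2 lipoxygenases, from 0.0635 ± 0.0553 to 44.4 ± 12.4 CPM (adjusted p = 2.23e-05), and Klk5, a protease of desquamation, from 0.0476 ± 0.0448 to 30.8 ± 2.74 CPM (adjusted p = 3.61e-06). All 3 had a DMSO library with 0 counts. The 2 lysosomal genes of this list that fell were Psap, the precursor of the saposins that aid glucosylceramide cleavage (−1.12, adjusted p = 5.57e-05), and Asah1, acid ceramidase (−0.68, adjusted p = 0.00175).

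The 7 rising genes ran closely together over the 12 libraries: the Pearson correlation of log2 CPM was 0.945 to 0.980 over their 21 pairs (median 0.959), a description in which the libraries share dose and culture. Against Ugcg the 7 genes ran from −0.169 to 0.0648, and against Smpd1 from −0.866 to −0.733. The genes whose log2 CPM correlated most with each one were looked up among 12438 genes that average at least 50 counts. This is a description over the same libraries. The closest to Cers3 was Dmkn (0.998), with Lce3c and Lce3d next. Pnpla1 was closest to Sdr9c7 (0.992), then Nccrp1 and Lce3e. Abca12 was closest to Klk5 (0.992), then Psapl1 and Gsdma. For Alox12b these were Smarcc1 (0.994), Tuba8 and Sbsn, and for Aloxe3 Trex2 (0.988) and Nras. Elovl4 ran with Prpf3 (0.990), Il1f5 and Pla2g4e, and Cyp4f39 with Tuba8 (0.993), Clic3 and Grhl3. Ugcg had a lower best value, with Fbln1 (0.956), then Ifi204 and Slc15a3, and Smpd1 was closest to Ak3 (0.979), then Cyb5r3 and Ivd. Among these 9 sets Tuba8 was the only gene named for 2 of the members. A high correlation does not mean a change of like size. From DMSO to 3 µM Smarcc1 went from 143 to 251 CPM, Nras from 111 to 180 and Prpf3 from 25.6 to 45.2. Others changed more, such as Dmkn from 26.9 to 1155 CPM.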

How the data were processed

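RNA of 12 organoid libraries (polyadenylated RNA, stranded TruSeq kit, Illumina HiSeq, per the labels' protocols) was counted per Ensembl gene. The authors deposited these raw counts, which are whole numbers for 25210 genes. They also deposited log2 values, which are log2 of 1 plus the count after scaling each library to 10 M (0 values differed by more than 1e-09) and were not tested. The submitters' processing notes name TopHat2 2.1, Bowtie 1.1.0, HTSeq and DESeq2 and the builds GRCm38 and mm10; their roles and the strand setting of counting are not given in the sources used here.

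Genes were filtered with edgeR's filterByExpr (15316 kept), scaled by TMM (trimmed mean of M values) and fitted with edgeR 4.0.16 (R 4.3.3, limma 3.58.1; robust glmQLFit, glmQLFTest) with 1 mean per group over all 12 libraries. The fit was tested on simulated data. CPM use the TMM-scaled totals of the tested genes; lengths per kilobase are the exon unions of GENCODE M21. Alternatives were a culture block, DESeq2 1.42.0, other scalings and filters, the 2 compared groups only, and fits without each library or culture. The floor of 3 counts for a gene at 0 covers counting error only, and no molecular identifiers are described. Replicate numbers pair the libraries, since each number is 1 animal's culture, split over the treatments: deviations from group means correlated at 0.177 to 0.840 in 18 pairs with the same number (median 0.505) and had a median of −0.212 over 36 pairs of unlike number and group. Values with the block are given only where a call, or a count of calls by over 1.5 times, depends on it.

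Named genes are the 9 members, the 3 largest called changes in each direction at 3 µM in each context list among genes that average at least 50 counts, and the 3 genes most correlated with each member, of which 1 is not reported here. The members and lists were chosen with earlier results of these data known. Hacd2 and Adgre1 were found by identifier under the older symbols Ptplb and Emr1, and Sts was not used here.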

Additional observations from a re-analysis of the deposited data

How the results depend on the processing

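The 9 genes were refitted under 22 alternatives, and of 989 recomputed values for single genes 866 kept direction and side of the threshold, 67 lost a call, 31 gained one and 25 changed sign; all sign changes were in Ugcg or in Smpd1 between 1.5 and 3 µM, and none of these had been called. At 3 µM against DMSO 7 genes were higher and 1 lower under all 22. At 1 µM 1 gene was higher in the reported fit, 5 with the replicate block (1 lower), 6 with DESeq2, 0 with the 2 groups only and 0 to 3 in fits without 1 library or culture; of all genes 37, 859, 485, 0 and 0 to 119 were called in these fits. At 1.5 µM against DMSO leaving out a library or culture gave 3 to 7 higher and 0 to 1 lower, with 3 higher without culture 2 (457 to 5085 of all genes, 457 without culture 2). From 1 to 1.5 µM 3 were higher with no filter on low counts, 3 with the 2 groups only and 0 to 7 in the fits without a library or culture (of all genes 494, 962 and 0 to 1508). From 1.5 to 3 µM 2 were higher with no filter and 0 to 5 without a library or culture (of all genes 3395 and 345 to 5682). The cause of these differences was not tested, and the fits that leave some libraries out also have fewer samples. With library totals in place of TMM, Ugcg was at 0.021 at 1 µM and −0.13 at 3 µM (log2), while the median of all genes at 3 µM moved to −0.229; with the replicate block Ugcg was at 0.13 from 1.5 to 3 µM. Without a library or culture Ugcg ran from −1.01 to 0.49 at 1 µM, −0.70 to 0.63 at 1.5 µM, −0.38 to 0.58 at 3 µM, −0.65 to 1.12 from 1 to 1.5 µM and −0.46 to 0.76 from 1.5 to 3 µM, and Smpd1 from −0.20 to 0.070 in that last step. Without culture 2 in all groups, Alox12b (edgeR adjusted p = 0.0919), Aloxe3 (0.0954), Cers3 (0.0882) and Pnpla1 (0.0708) lost their call at 1.5 µM. Alox12b had 0 counts and Pnpla1 1 to 6 in the DMSO libraries, so depth limits the size of their folds. Low DMSO counts also bear on the folds of Aloxe3 (2 to 19), Cyp4f39 (5 to 17), Cers3 (7 to 64) and Abca12 (11 to 38). The replicate block changed no call of the 9 genes beyond those printed beside the results.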

Other observations

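All 12 transcription factors listed for a described part in epidermal barrier gene expression were tested. At 3 µM 7 were higher (58.3%), 4 lower (33.3%) and 1 not called, with a median log2 change of 1.21. Of all genes tested 29.9% were higher and 27.7% lower at that dose, so the share of decreases is near that of all genes. At 1.5 µM 6 were higher and 3 lower, beside 15.4% and 11.8% of all genes. At 1 µM 0 passed in either direction, beside 0.189% and 0.0522%. With the culture block 4 were higher and 3 lower at 1 µM, beside 2.55% and 3.06%. Grhl3, a grainyhead-like factor of terminal differentiation, went from 1.44 ± 0.458 CPM in DMSO through 4.30 ± 0.691 (1 µM) and 17.3 ± 4.58 (1.5 µM) to 63.5 ± 16.2 CPM (3 µM; SD, n = 3; log2 5.41, edgeR adjusted p = 1.87e-06). Klf4, a factor needed for the skin barrier, went from 19.99 ± 4.81 to 319 ± 85.4 CPM (3.99, adjusted p = 5.56e-06) and Ovol1, a suprabasal repressor, from 5.80 ± 3.15 to 81.5 ± 10.5 CPM (3.79, adjusted p = 6.36e-05). The largest decreases were those of the lipid-sensing nuclear receptors Pparg (99.3 ± 44.9 to 2.44 ± 1.75 CPM, −5.33, adjusted p = 0.000138), Ppara (10.6 ± 5.08 to 0.501 ± 0.295 CPM, −4.37, adjusted p = 0.000193) and Nr1h3 (40.8 ± 14.7 to 4.22 ± 1.01 CPM, −3.27, adjusted p = 0.000183). The sum of the adipocyte markers was 3445 to 9204 CPM in DMSO and 36.2 to 237.9 CPM at 3 µM, and their part in the decreases of these receptors was not tested.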
